A study of Mus musculus with 12 samples.

Results

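The alcohol dehydrogenases (Adh), aldehyde dehydrogenases (Aldh) and aldo-keto reductases (Akr) were followed in the livers of 12 female mice. Members are the protein-coding genes of the deposited table whose names begin with Adh, Aldh or Akr and a digit, with 1 gene left out. These are 40 of 22557 genes, and comprise 5 Adh, 20 Aldh and 15 Akr genes. The 4 groups of 3 mice were KO_tumor (Mtdh KO, bearing a Py8119 mammary tumour), WT_tumor (Mtdh WT, bearing the same tumour), KO_no_tumor (Mtdh KO, without a tumour) and WT_no_tumor (Mtdh WT, without a tumour). Mtdh encodes metadherin, and Py8119 cells are a line from a mammary tumour of a mouse. Mice were of matched age, and the labels give neither the age, the strain, the KO allele nor the cells in which it is lost. The series asks what host Mtdh does to lipid metabolism of the liver and to CD8+ T cells.

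These families hand substrates to each other. Alcohol dehydrogenases oxidise alcohols such as ethanol and retinol to aldehydes, and aldehyde dehydrogenases oxidise aldehydes on to acids. Aldo-keto reductases mostly work in the reducing direction, on aldehydes, sugars and the keto groups of steroids. Hepatocytes carry many members of each family, which serve the disposal of alcohol and fatty aldehydes, retinoid, folate and amino acid metabolism, and the making of bile acids.

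The deposited values are reads divided by a size factor for each library. The estimated depth was 12720000 reads in KO_tumor replicate 1 and 25720000 to 43020000 reads in the remaining libraries, and KO_tumor replicate 1 also had the fewest genes above 0 (14899). Small nucleolar RNAs took 4.84% of the signal of KO_no_tumor replicate 3, against 0.26% to 1.23% elsewhere. Mtdh had normalised values of 1063, 380 and 323 in KO_tumor, 5290, 3954 and 5702 in WT_tumor, 584, 436 and 627 in KO_no_tumor and 4330, 5375 and 4973 in WT_no_tumor livers, so every KO liver lay below every WT liver. All 8 hepatocyte markers were above 0 in every group, with summed values of 2668581 to 4325600 in KO_tumor, 3209095 to 3704203 in WT_tumor, 2471182 to 2947506 in KO_no_tumor and 2354175 to 2652276 in WT_no_tumor livers. Most of that sum is Alb, and single markers differed from it and in direction from each other. Cps1, of the urea cycle, averaged 65177 in KO_tumor, 103359 in WT_tumor, 150272 in KO_no_tumor and 120821 in WT_no_tumor livers. Means of Pck1 were 2578 in KO_tumor, 7145 in WT_tumor, 8258 in KO_no_tumor and 5430 in WT_no_tumor livers. Apoa1 averaged 54110 in KO_tumor, 46487 in WT_tumor, 21412 in KO_no_tumor and 17943 in WT_no_tumor livers. For Cyp2e1 the means were 103580 in KO_tumor, 67392 in WT_tumor, 97098 in KO_no_tumor and 80150 in WT_no_tumor livers. The 40 members together took 0.42% to 0.703% of the signal of a library.

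Levels of different members need scaling by length to be set side by side, and are given here per kb of exon. How reads were counted is not given, so this order could shift if reads outside exons were included. In WT_no_tumor livers Adh1, the main alcohol dehydrogenase of liver, had the highest level, 24614 ± 2404 per kb (SD, n = 3). Akr1c6, a mouse hydroxysteroid dehydrogenase, followed at 11873 ± 2219 per kb, then Akr1c14, a mouse hydroxysteroid dehydrogenase as well, at 9893 ± 2428 per kb and Aldh6a1, of valine and thymine breakdown, at 8640 ± 2095 per kb. Neighbours among these last 3 did not differ by more than their spread. Akr1d1, the steroid reductase of bile acid synthesis, came next at 2761 ± 276 per kb. The level of Aldh1l1, which oxidises formyl-tetrahydrofolate in the cytosol, was 2342 ± 919 per kb and that of Aldh3a2, the fatty aldehyde dehydrogenase, 2322 ± 639 per kb, again within their spread of each other. Near the low end the levels were 12.9 ± 5.35 per kb for Aldh18a1, 8.91 ± 4.99 per kb for Aldh1a3 and 6.53 ± 1.26 per kb for Aldh1l2.

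**Figure D1:**
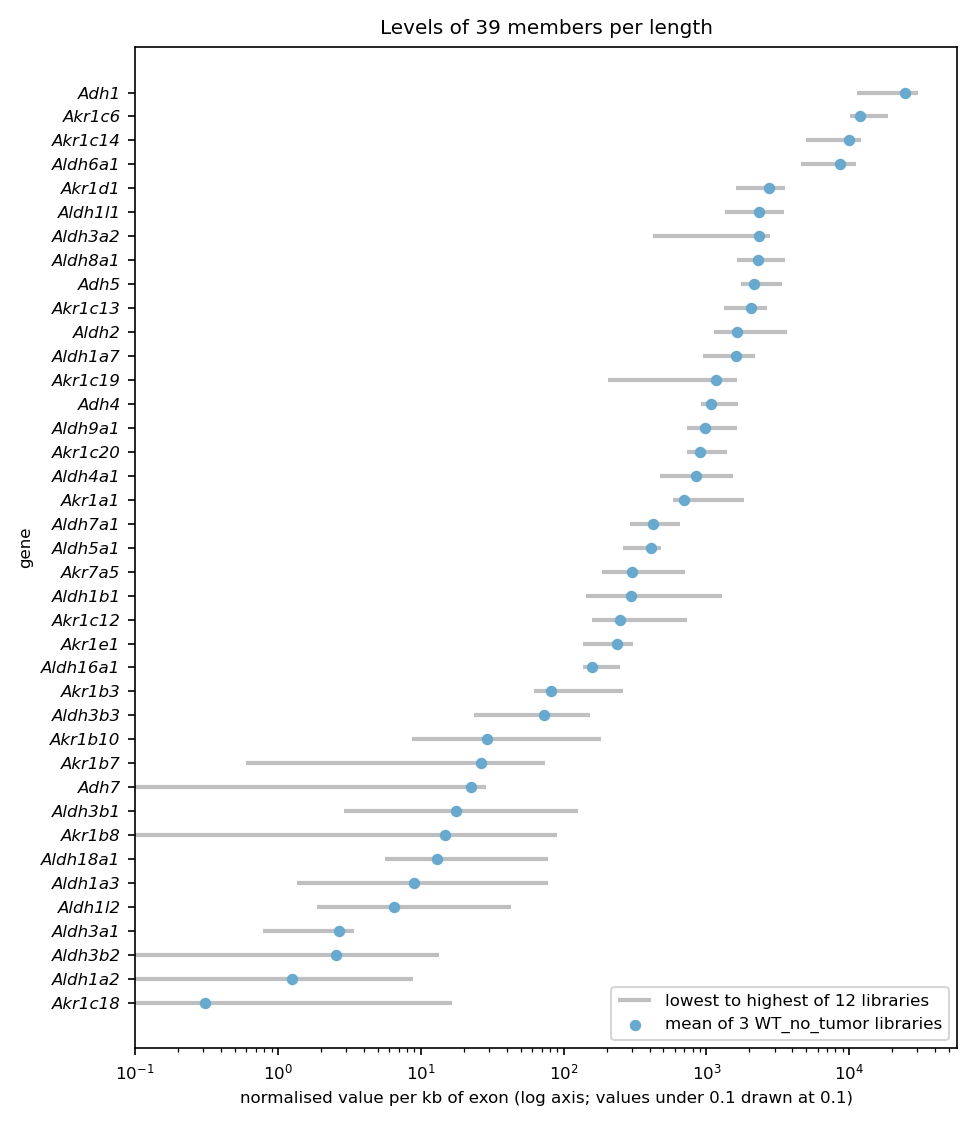
Normalised value per kb of exon (log axis) of 39 members, with points for the mean of 3 WT_no_tumor libraries and grey lines from the lowest to the highest of the 12 libraries; values under 0.1 are drawn at 0.1, and Adh6b, at 0 in all WT_no_tumor libraries, is left out. Adh1 leads at 24614 per kb, and Aldh18a1, Aldh1a3 and Aldh1l2 stand at 12.9, 8.91 and 6.53 per kb.

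Of the 40 members, 36 reached a value of 10 in 3 or more libraries and were tested with limma on log2(value + 1) in 1 fit of 17380 genes. Fold changes below are log2 differences on that scale, given with their standard error. Adding 1 shrinks the change of low genes, but libraries at or near 0 can enlarge it past the ratio of means. Akr1b7 with a tumour in KO livers had a difference of −3.28, where the ratio of means was 0.279. A gene is called changed at a Benjamini-Hochberg adjusted p under 0.05 over all genes tested. Adh6b, Akr1c18, Aldh1a2 and Aldh3a1 were too low to test, and their highest values in any library were 33.2, 19.9, 19.9 and 6.31.

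In tumour-bearing livers 3 members fell and 2 rose when the tumour effect was averaged over both genotypes. Aldh3a2, of fatty aldehyde disposal, Akr1c19, of the hydroxysteroid dehydrogenase subfamily, and Akr1d1, of bile acid synthesis, were lower. Aldh1l2, of mitochondrial folate metabolism, and Aldh18a1, of proline and ornithine synthesis, were higher. These 5 of 36 members compare with 1.06% of all tested genes called by limma in the same comparison (0.616% higher and 0.449% lower). Over all genes 107 were higher and 78 lower (133 and 45 when all libraries had an equal total, 161 and 72 with quantile normalization), and with quantile normalization 3 members were higher and 2 lower. The call of Aldh3a2 held with each library left out in turn. It was the 1 member called without KO_tumor replicate 3, KO_no_tumor replicate 1 or 3, or WT_no_tumor replicate 1 or 2, where 47 to 92 genes were called in all. Of 36 members 22 had a positive difference, with a median of 0.03 beside a median of −0.04 over all genes, and without WT_tumor replicate 2 the positive ones were 15, with a median of −0.02. Without KO_tumor replicate 1 they were 18, also with a median of −0.02.

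**Figure D2:**
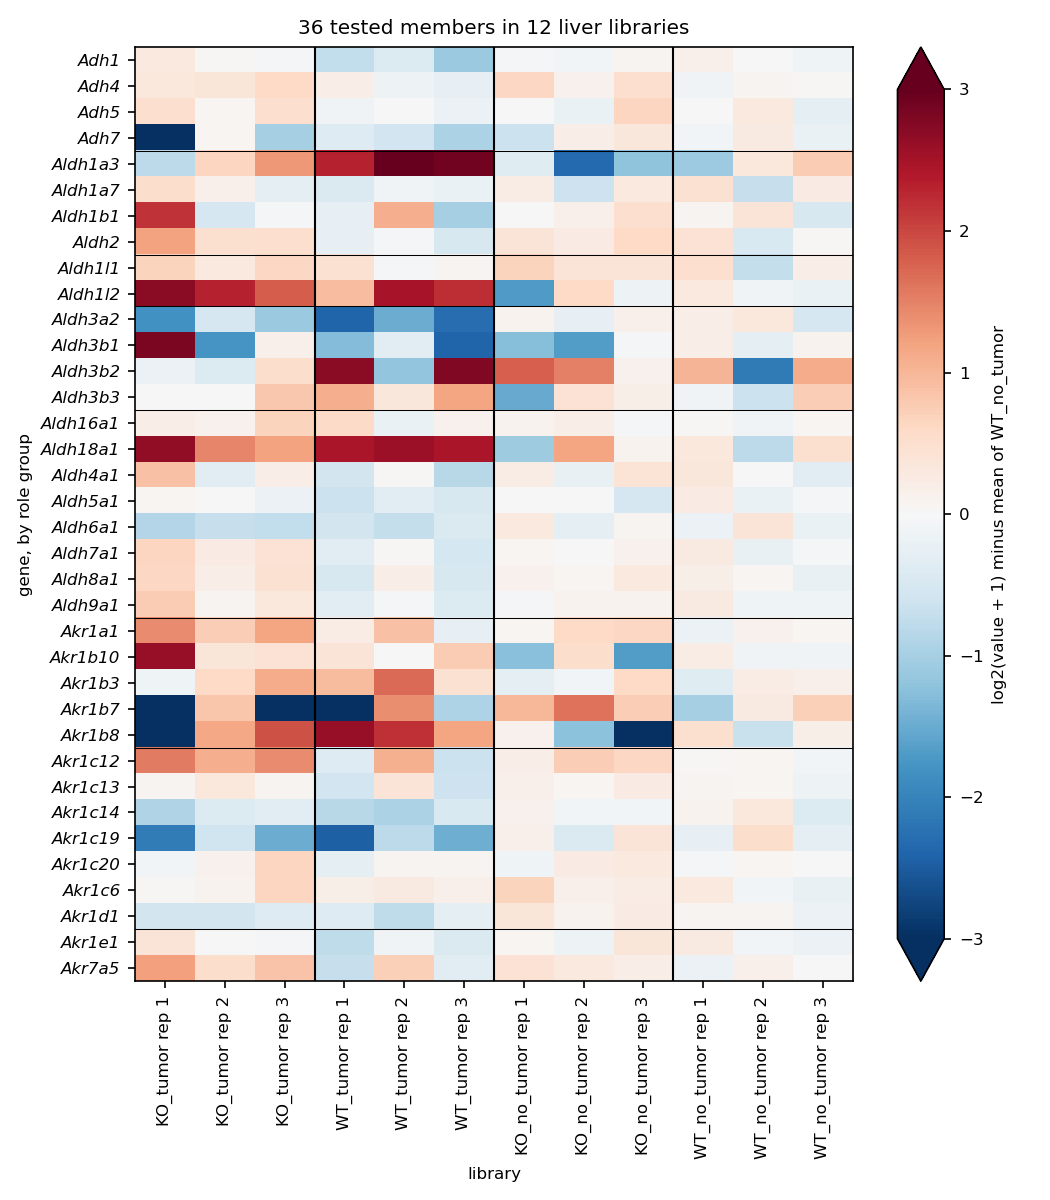
Rows are the 36 tested members in role groups and columns the 12 libraries; colour is log2(value + 1) minus the mean of the 3 WT_no_tumor libraries, and differences beyond −3 or 3 take the end colours. Aldh3a2 and Akr1c19 are below 0 and Aldh1l2 and Aldh18a1 above 0 in all 6 tumour libraries.

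The 5 called members lie on 5 different chromosomes. Upstream sequences are shown for 4 of them, to set those of genes that fell beside that of a gene that rose. They come from the RefSeq promoter table (GRCm38.p6), in which 31 of the 40 members had a window, and Aldh1l2 was not matched. Each is the 250 bases before the gene's start, 5′ to 3′ on its own strand. Capitals mark matches to the E-box CACGTG, which reads the same on both strands, to the CCAAT box, which on the other strand reads ATTGG, and to the nuclear receptor half-site AGGTCA, which on the other strand reads TGACCT. No matches overlap here.
Aldh3a2 (chr11:61267187-61267436, minus strand): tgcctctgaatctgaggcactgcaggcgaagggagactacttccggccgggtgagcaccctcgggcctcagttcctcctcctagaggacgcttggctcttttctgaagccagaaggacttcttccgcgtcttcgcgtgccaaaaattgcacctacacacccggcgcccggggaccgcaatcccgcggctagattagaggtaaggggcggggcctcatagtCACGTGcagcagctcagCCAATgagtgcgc
Aldh18a1 (chr19:40588464-40588713, minus strand): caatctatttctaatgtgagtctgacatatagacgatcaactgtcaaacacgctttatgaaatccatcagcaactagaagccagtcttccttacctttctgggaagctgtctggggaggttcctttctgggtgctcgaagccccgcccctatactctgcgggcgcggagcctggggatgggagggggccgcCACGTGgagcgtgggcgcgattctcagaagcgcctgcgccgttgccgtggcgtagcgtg
Akr1d1 (chr6:37529923-37530172, plus strand): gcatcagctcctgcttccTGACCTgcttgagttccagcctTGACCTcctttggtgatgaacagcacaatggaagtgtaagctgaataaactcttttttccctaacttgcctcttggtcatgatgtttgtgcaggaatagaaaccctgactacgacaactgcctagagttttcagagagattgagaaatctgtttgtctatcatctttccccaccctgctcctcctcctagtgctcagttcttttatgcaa
Akr1c19 (chr13:4233490-4233739, plus strand): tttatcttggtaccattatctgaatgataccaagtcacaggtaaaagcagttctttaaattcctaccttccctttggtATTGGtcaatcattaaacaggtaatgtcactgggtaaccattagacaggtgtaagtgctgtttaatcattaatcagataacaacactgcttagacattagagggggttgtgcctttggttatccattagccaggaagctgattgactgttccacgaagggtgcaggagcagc

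In the windows of 31 members, CACGTG was found in 2, Aldh3a2 and Aldh18a1, of which the first fell and the second rose with a tumour, and in 6.02% of 32851 windows of all genes. It began 30 bases before the start in Aldh3a2, which also held CCAAT 13 bases before it, and 59 bases before the start in Aldh18a1. CCAAT in either orientation was found in 17 members and in 33.85% of all windows, with ATTGG 172 bases before the start of Akr1c19. AGGTCA in either orientation was found in 8 members and in 14.02% of all windows, with TGACCT 232 and 210 bases before the start of Akr1d1. TGATGNAA (TTNCATCA on the other strand), also searched, was found in 0 members and in 3.45% of all windows. A member counts here where any of its windows matched (33 windows for 31 members), whereas the percentages are of single windows. A match describes letters, not binding.

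The tumour effect within each genotype gave fewer calls. In WT livers limma called 1 member, Aldh3a2, against 0.679% of all tested genes (75 higher and 43 lower, or 77 and 25 at an equal total). Before adjustment, 4 higher and 7 lower members had p under 0.05, against 8.67% of all genes. The 3 WT_tumor livers lay below the 3 WT_no_tumor livers in 9 members (8.05% of all genes) and above them in 5 (9.46% of all genes). In KO livers limma called 0 members and 0.0% of all genes, with 6 higher and 5 lower members at an unadjusted p under 0.05, against 12.7% of all genes. The KO_tumor livers lay above the KO_no_tumor livers in 6 members (7.34% of all genes) and below them in 5 (9.48% of all genes). The median difference of the 36 members was −0.17 in WT livers and 0.18 in KO livers, beside 0.01 and −0.08 over all genes. The positive members in KO livers numbered 27, and 23 without KO_tumor replicate 1, with a median of 0.08. The test of the difference between genotypes called 0 members and 0.0% of all genes by limma, with 3 members at an unadjusted p under 0.05, against 4.7% of all genes.

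Loss of Mtdh changed no member past the limma threshold in the fit reported. In tumour-bearing livers 0 members were called, against 0.023% of all genes, which were 2 higher and 2 lower (2 and 4 at an equal total). There 13 members were higher and 1 lower at an unadjusted p under 0.05, against 14.4% of all genes. The KO_tumor livers lay above the WT_tumor livers in 10 members (8.11% of all genes) and below them in 1 (9.8% of all genes). The difference was positive in 26 of 36 members with a median of 0.41, beside 42.8% of all genes and a median of −0.12. Quantile normalization moved that median of all genes by 0.13, to 0.01, and that of the members to 0.44. Without KO_tumor replicate 1 the positive members were 27, with a median of 0.38. Without WT_tumor replicate 2, limma called 3 members higher in KO_tumor (Akr1c12, Akr7a5 and Aldh8a1), and over all genes 129 higher and 81 lower.

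Without a tumour, limma called 0 members between genotypes and 0.00575% of all genes, and 1 member passed an unadjusted p under 0.05, against 1.93% of all genes. The KO_no_tumor livers lay above the WT_no_tumor livers in 5 members (3.56% of all genes) and below them in 0 (4.37% of all genes). Averaged over tumour states, limma called 0 members and 0.0115% of all genes. Before adjustment, 10 higher members and 1 lower had p under 0.05, against 10.3% of all genes.

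Summed markers of some other cell types moved with the groups, and their part in these results was not tested. Others overlapped between all groups. The 6 T and NK cell markers summed to 138.5 to 438.9 in KO_tumor, 132.5 to 314.7 in WT_tumor, 95.5 to 194.7 in KO_no_tumor and 79.0 to 147.7 in WT_no_tumor livers. The sum of 438.9 came from KO_tumor replicate 1. Ncr1 was at 180 there, and at 10.4 and 14.6 in KO_tumor replicates 2 and 3. The 4 B cell markers summed to 152.0 to 217.0 in KO_tumor, 111.2 to 253.2 in WT_tumor, 181.1 to 273.5 in KO_no_tumor and 101.2 to 183.7 in WT_no_tumor livers. The 7 stellate cell and fibroblast markers, all above 0 in every group, summed to 15090 to 19063 in KO_tumor, 21959 to 26237 in WT_tumor, 12305 to 14241 in KO_no_tumor and 13315 to 14796 in WT_no_tumor livers. Single markers of that list differed from the sum. Reln averaged 4572 in KO_tumor, 4660 in WT_tumor, 4694 in KO_no_tumor and 4789 in WT_no_tumor livers. Means of Col3a1 were 1371 in KO_tumor, 3794 in WT_tumor, 1559 in KO_no_tumor and 1350 in WT_no_tumor livers. Those of Dcn were 6683 in KO_tumor, 6894 in WT_tumor, 2994 in KO_no_tumor and 3101 in WT_no_tumor livers. The 7 neutrophil markers summed to 17.3 to 127 in KO_tumor, 209 to 452 in WT_tumor, 25.0 to 111 in KO_no_tumor and 10.2 to 69.4 in WT_no_tumor livers, with 1 marker at 0 in each of the groups without a tumour. The 6 cholangiocyte markers, all above 0, summed to 1340 to 2116 in KO_tumor, 1878 to 2571 in WT_tumor, 1157 to 1386 in KO_no_tumor and 1415 to 1704 in WT_no_tumor livers. Most of that sum is Sox9 and Spp1, with Sox9 means of 451 in KO_tumor, 807 in WT_tumor, 355 in KO_no_tumor and 465 in WT_no_tumor livers. The other markers were low and did not all follow it. Epcam averaged 70.9 in KO_tumor, 74.5 in WT_tumor, 65.1 in KO_no_tumor and 78.9 in WT_no_tumor livers. Of 7 mammary epithelium markers 5 were in the table, all above 0, and summed to 2632 to 5787 in KO_tumor, 4272 to 5448 in WT_tumor, 2341 to 2741 in KO_no_tumor and 2145 to 2883 in WT_no_tumor livers. Nearly all of that sum is Krt8 and Krt18, keratins that liver epithelium expresses too, with Krt18 means of 2538 in KO_tumor, 3374 in WT_tumor, 1447 in KO_no_tumor and 1562 in WT_no_tumor livers. The basal keratin Krt5 was low in every group, with means of 13.7 in KO_tumor, 12.9 in WT_tumor, 15.4 in KO_no_tumor and 17.0 in WT_no_tumor livers. The same held for the other basal keratin Krt14, at means of 34.4 in KO_tumor, 45.6 in WT_tumor, 37.9 in KO_no_tumor and 42.8 in WT_no_tumor livers, and for the basal factor Trp63, at means of 8.83 in KO_tumor, 10.04 in WT_tumor, 18.8 in KO_no_tumor and 9.23 in WT_no_tumor livers. The macrophage and the endothelium lists had higher median sums in both tumour groups than in both groups without a tumour. Macrophage sums of single livers overlapped, at 7157 to 11133 in KO_tumor, 7260 to 10397 in WT_tumor, 4900 to 9640 in KO_no_tumor and 4328 to 9467 in WT_no_tumor livers. Endothelium sums ran from 7833 to 14134 in KO_tumor, 7135 to 8331 in WT_tumor, 5568 to 6295 in KO_no_tumor and 4131 to 6065 in WT_no_tumor livers. The sum of 14134 came from KO_tumor replicate 1, the shallowest library. Pecam1 was at 9256 there, and at 2935 and 3276 in KO_tumor replicates 2 and 3. In whole liver, fewer cells of a type and less RNA per cell cannot be told apart.

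**Figure D3:**
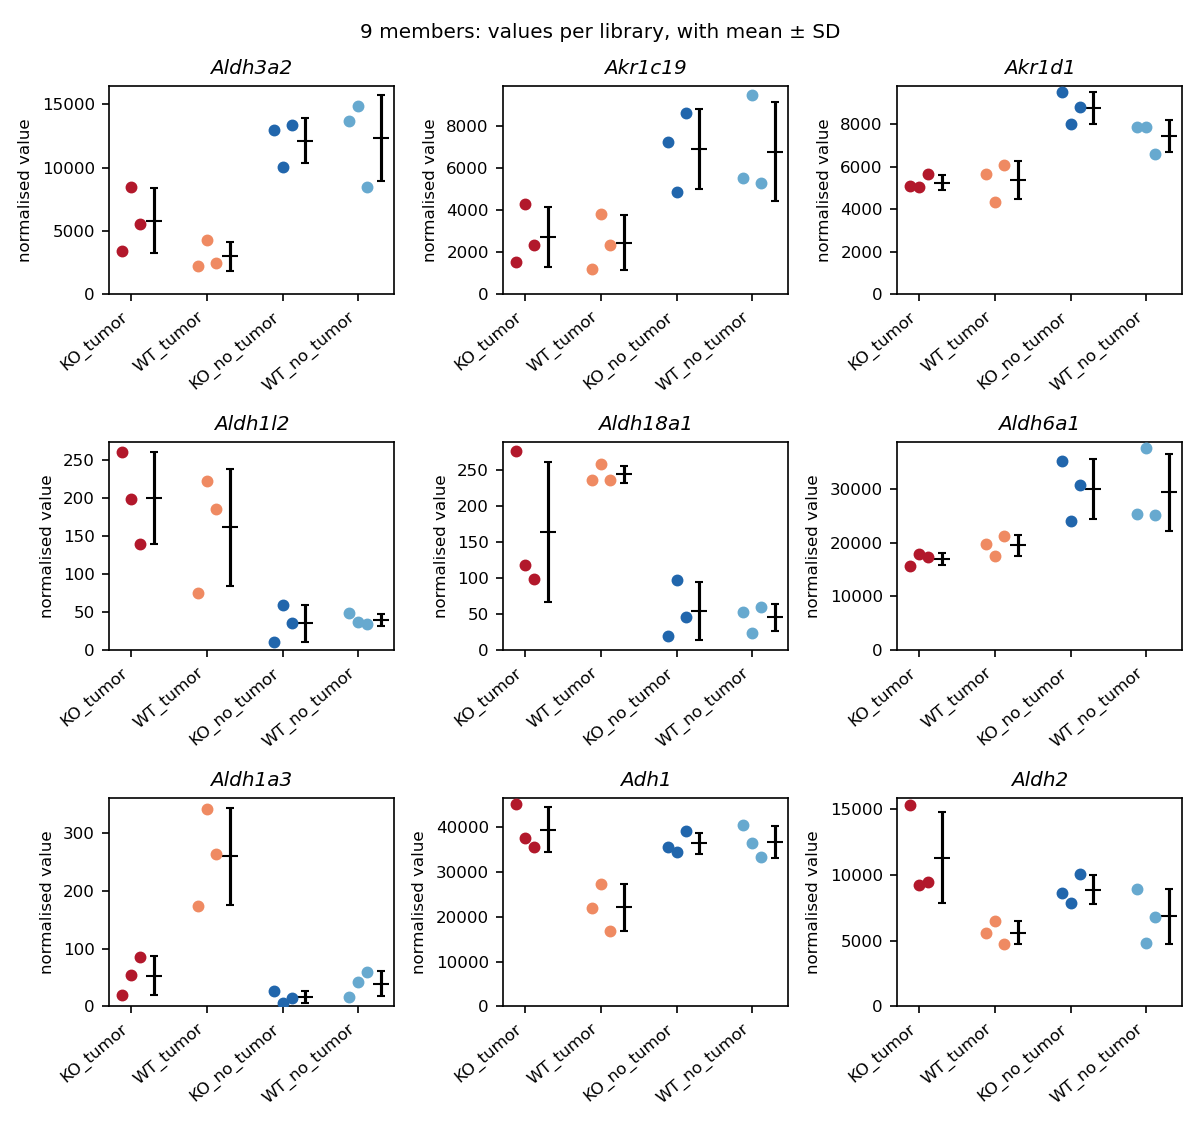
Normalised value (axes from 0) of 9 members in each library, 1 panel per gene, with points for single livers and a bar for the mean ± SD of 3. The tumour groups lie apart from the groups without a tumour within each genotype in the first 6 panels, and the 3 WT_tumor points of Adh1 lie below the rest, at a mean of 22066.

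Among the alcohol dehydrogenases no member passed a test in the fit reported. WT_tumor livers stood apart in Adh1 (ENSMUSG00000074207, chromosome 3, 137966752 to 137996459, mm39), which oxidises ethanol and retinol. Its values were 45070, 37597 and 35537 in KO_tumor, 22004, 27337 and 16857 in WT_tumor, 35594, 34461 and 39051 in KO_no_tumor and 40445, 36434 and 33290 in WT_no_tumor livers. Every WT_tumor liver lay below each of the 9 livers of the remaining groups, which overlapped with each other. Means were 39401 ± 5016 in KO_tumor, 22066 ± 5240 in WT_tumor, 36369 ± 2391 in KO_no_tumor and 36723 ± 3586 in WT_no_tumor livers (SD, n = 3). The tumour difference was −0.76 ± 0.23 (limma adjusted p = 0.23) in WT livers and 0.11 ± 0.23 (limma adjusted p = 0.845) in KO livers, and KO_tumor minus WT_tumor was 0.86 ± 0.23 (limma adjusted p = 0.168). The difference between these tumour differences was 0.87 ± 0.33 (limma adjusted p = 0.859). With library weights, limma called Adh1 lower with a tumour in WT livers and higher in KO_tumor than in WT_tumor livers.

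Adh4, a class that oxidises retinol and longer alcohols, was at 1751, 1836 and 2153 in KO_tumor, 1619, 1281 and 1199 in WT_tumor, 2194, 1561 and 2003 in KO_no_tumor and 1310, 1490 and 1458 in WT_no_tumor livers. KO livers lay above WT livers in both tumour states. The KO difference was 0.42 ± 0.19 (limma adjusted p = 1.0) without a tumour and 0.49 ± 0.19 (limma adjusted p = 0.273) with one. Adh5, which disposes of formaldehyde bound to glutathione, averaged 4434 ± 734 in KO_tumor, 3228 ± 207 in WT_tumor, 3946 ± 1262 in KO_no_tumor and 3473 ± 720.0 in WT_no_tumor livers. Adh7, the retinol-oxidising form of stomach and other epithelia, was at 0 in KO_tumor replicate 1, the shallowest library, and at 37.7 to 97.3 in all others. Adh6b was at 0 in 10 libraries and at 5.76 and 33.2 in WT_tumor replicates 2 and 3. The 5 genes lie on chromosome 3 between 137923521 and 138161260 (mm39).

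In the Aldh1a, Aldh1b and Aldh2 group, Aldh2, the mitochondrial enzyme that clears acetaldehyde, and Aldh1a3, which makes retinoic acid from retinal, stood out between genotypes in opposite directions. Neither passed the test in the fit reported. Aldh2 (ENSMUSG00000029455, chromosome 5, 121704090 to 121731887, mm39) was at 15332, 9215 and 9445 in KO_tumor, 5622, 6507 and 4722 in WT_tumor, 8625, 7895 and 10078 in KO_no_tumor and 8948, 4821 and 6775 in WT_no_tumor livers. Every KO_tumor liver lay above every WT_tumor liver, and KO_tumor replicate 1 was the highest of the 12. KO_tumor minus WT_tumor was 0.98 ± 0.25 (limma adjusted p = 0.157), and the KO difference averaged over tumour states 0.70 ± 0.18 (limma adjusted p = 0.342). With library weights, limma called Aldh2 higher in KO_tumor than in WT_tumor livers.

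Aldh1a3 (ENSMUSG00000015134, chromosome 7, 66040638 to 66077265, mm39) was at 19.7, 54.6 and 86.2 in KO_tumor, 174, 342 and 265 in WT_tumor, 26.5, 6.02 and 14.5 in KO_no_tumor and 15.8, 43.1 and 59.7 in WT_no_tumor livers. The 3 WT_tumor livers lay above all 9 others. The tumour difference was 2.82 ± 0.77 (limma adjusted p = 0.158) in WT livers and 2.26 ± 0.55 (limma adjusted p = 0.0677) averaged over genotypes. KO_tumor minus WT_tumor was −2.44 ± 0.77 (limma adjusted p = 0.213), KO_no_tumor minus WT_no_tumor −1.30 ± 0.77 (limma adjusted p = 1.0) and the KO difference averaged over tumour states −1.87 ± 0.55 (limma adjusted p = 0.369). The KO difference without a tumour was −0.79 without KO_no_tumor replicate 2. Aldh1a3 was called higher with a tumour, both in WT livers and averaged over genotypes, without KO_tumor replicate 1 and with library weights. It was also called in WT livers when those libraries were fitted alone, and in the averaged comparison with a pseudocount of 10, with protein-coding genes alone and with quantile normalization.

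The remaining members of the group overlapped in the 4 pairs of groups compared. Aldh1b1, a second mitochondrial acetaldehyde dehydrogenase, was at 2944, 461 and 633 in KO_tumor, 551, 1403 and 328 in WT_tumor, 662, 724 and 931 in KO_no_tumor and 698, 859.9 and 470.4 in WT_no_tumor livers, with KO_tumor replicate 1 the highest of the 12. Aldh1a7, a rodent member of the Aldh1a subfamily, averaged 3547 ± 958 in KO_tumor, 2668 ± 299 in WT_tumor, 3205 ± 1001 in KO_no_tumor and 3337 ± 1250 in WT_no_tumor livers. Aldh1a2, another retinoic acid enzyme, did not pass 19.9 in any library.

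Of the folate enzymes, Aldh1l2, the mitochondrial enzyme that oxidises formyl-tetrahydrofolate, rose with a tumour, and its cytosolic relative Aldh1l1 did not pass any test. Aldh1l2 (ENSMUSG00000020256, chromosome 10, 83323314 to 83370004, mm39) was at 261, 198 and 140.0 in KO_tumor, 75.6, 223 and 186 in WT_tumor, 11.3, 60.2 and 35.5 in KO_no_tumor and 48.5, 36.8 and 34.1 in WT_no_tumor livers. All 6 tumour livers lay above all 6 livers without a tumour (0.748% of all genes). Means were 199.9 ± 60.7 in KO_tumor, 162 ± 76.7 in WT_tumor, 35.7 ± 24.4 in KO_no_tumor and 39.8 ± 7.69 in WT_no_tumor livers (SD, n = 3). The tumour effect averaged over genotypes was 2.28 ± 0.46 (limma adjusted p = 0.033), with 2.69 ± 0.65 (limma adjusted p = 0.324) in KO livers and 1.87 ± 0.65 (limma adjusted p = 0.331) in WT livers. The averaged call ended without KO_tumor replicate 3 (limma adjusted p = 0.067), WT_tumor replicate 2 (0.0744), WT_tumor replicate 3 (0.0788), KO_no_tumor replicate 1 (0.0756), KO_no_tumor replicate 3 (0.059), WT_no_tumor replicate 1 (0.069), WT_no_tumor replicate 2 (0.0833) or WT_no_tumor replicate 3 (0.0597), in each case with a positive difference.

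Aldh1l1 was at 14630, 11319 and 14139 in KO_tumor, 12557, 8849 and 9668 in WT_tumor, 14549, 11983 and 12068 in KO_no_tumor and 13107, 5583 and 10642 in WT_no_tumor livers, and the groups overlapped. The averaged tumour difference was 0.10 ± 0.19 (limma adjusted p = 0.835) and KO_no_tumor minus WT_no_tumor was 0.48 ± 0.27 (limma adjusted p = 1.0). That last difference was 0.12 without WT_no_tumor replicate 2, the lowest of the 12 libraries, and 0.73 without WT_no_tumor replicate 1.

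Of the Aldh3 enzymes of lipid aldehydes, Aldh3a2 fell with a tumour. It encodes the fatty aldehyde dehydrogenase of the endoplasmic reticulum, which oxidises long-chain aldehydes from lipid breakdown. Aldh3a2 (ENSMUSG00000010025, chromosome 11, 61114243 to 61158290, mm39) was at 3420, 8499 and 5517 in KO_tumor, 2253, 4274 and 2448 in WT_tumor, 12945, 10087 and 13343 in KO_no_tumor and 13692, 14868 and 8485 in WT_no_tumor livers. Within each genotype every tumour liver lay below every liver without a tumour. Across genotypes the highest KO_tumor value, in replicate 2, was just above the lowest WT_no_tumor value, in replicate 3. Means were 5812 ± 2553 in KO_tumor, 2992 ± 1114 in WT_tumor, 12125 ± 1776 in KO_no_tumor and 12348 ± 3397 in WT_no_tumor livers (SD, n = 3), and the ratio of the WT_tumor mean to the WT_no_tumor mean was 0.242.

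The tumour effect on Aldh3a2 averaged over genotypes was −1.61 ± 0.23 (limma adjusted p = 0.00572). That call held in all 20 alternatives, with adjusted p between 0.000219 and 0.0261 by limma. In WT livers the change was −2.06 ± 0.33 (limma adjusted p = 0.0124), and this call ended without WT_tumor replicate 1 (limma adjusted p = 0.0835), WT_tumor replicate 3 (0.0808), WT_no_tumor replicate 1 (0.0765) or WT_no_tumor replicate 2 (0.0667). In KO livers the difference was −1.15 ± 0.33 (limma adjusted p = 0.324), and the difference between genotypes was 0.92 ± 0.46 (limma adjusted p = 0.859). KO_tumor minus WT_tumor was 0.92 ± 0.33 (limma adjusted p = 0.248).

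The neighbouring gene on chromosome 11, Aldh3a1, which is known from cornea and stomach, stayed between 1.44 and 6.31 in the 12 libraries. Aldh3b1, which oxidises aldehydes from lipid peroxidation, was at 244 in KO_tumor replicate 1, the shallowest library, and at 5.53 to 38.4 in all others. Aldh3b3 averaged 319 ± 111 in KO_tumor, 483 ± 139 in WT_tumor, 242 ± 135 in KO_no_tumor and 277 ± 135 in WT_no_tumor livers, and Aldh3b2 did not pass 28.9 in any library. Aldh3b2 and Aldh3b3 share 24.2% and 12.8% of their transcript 50-mers with another gene, chiefly each other, so their values are uncertain.

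The enzymes of amino acid and other intermediary metabolism, Aldh4a1 to Aldh18a1, held 1 called member. Aldh18a1 encodes the enzyme that starts proline and ornithine synthesis from glutamate, and it rose with a tumour. Aldh18a1 (ENSMUSG00000025007, chromosome 19, 40538701 to 40576907, mm39) was at 276, 118 and 99.2 in KO_tumor, 237, 259 and 237 in WT_tumor, 19.8, 97.8 and 46.0 in KO_no_tumor and 53.1, 24.2 and 59.6 in WT_no_tumor livers. All 6 tumour livers lay above all 6 without a tumour, though KO_tumor replicate 3 passed KO_no_tumor replicate 2 by little. Means were 165 ± 97.1 in KO_tumor, 244 ± 12.5 in WT_tumor, 54.6 ± 39.7 in KO_no_tumor and 45.6 ± 18.9 in WT_no_tumor livers (SD, n = 3). The averaged tumour effect was 2.10 ± 0.44 (limma adjusted p = 0.0402), with 1.70 ± 0.63 (limma adjusted p = 0.35) in KO livers and 2.49 ± 0.63 (limma adjusted p = 0.115) in WT livers. The averaged call ended without KO_tumor replicate 3 (limma adjusted p = 0.068), WT_tumor replicate 1 (0.102), WT_tumor replicate 2 (0.0803), WT_tumor replicate 3 (0.0812), KO_no_tumor replicate 1 (0.0988), KO_no_tumor replicate 3 (0.0843), WT_no_tumor replicate 1 (0.0823), WT_no_tumor replicate 2 (0.104) or WT_no_tumor replicate 3 (0.0529), in each case with a positive difference. Without KO_tumor replicate 1, Aldh18a1 was called higher in WT livers as well.

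Aldh6a1, which closes valine and thymine breakdown with methylmalonate semialdehyde, was at 15724, 17859 and 17282 in KO_tumor, 19766, 17456 and 21251 in WT_tumor, 35209, 24048 and 30674 in KO_no_tumor and 25386, 37587 and 25128 in WT_no_tumor livers. All 6 tumour livers lay below all 6 without a tumour (0.909% of all genes). The averaged tumour difference, −0.69 ± 0.16 (limma adjusted p = 0.0596), missed the threshold, as did those in KO livers, −0.81 ± 0.23 (limma adjusted p = 0.324), and in WT livers, −0.57 ± 0.23 (limma adjusted p = 0.45). Aldh6a1 was called lower in the averaged comparison without KO_no_tumor replicate 2, when protein-coding genes alone were tested and with library weights.

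After Adh1, Aldh5a1 and Aldh7a1 had the smallest p for a difference between genotypes in the tumour response, and neither was called. Aldh5a1, of GABA breakdown, was at 2402, 2273 and 2045 in KO_tumor, 1459, 1800 and 1644 in WT_tumor, 2306, 2271 and 1617 in KO_no_tumor and 2726, 1998 and 2221 in WT_no_tumor livers. All 3 WT_tumor livers lay below the WT_no_tumor and the KO_tumor livers. The difference between tumour effects in KO and WT livers was 0.63 ± 0.27 (limma adjusted p = 0.859), and 0.41 without KO_tumor replicate 1 and KO_no_tumor replicate 3. Aldh7a1, of lysine breakdown, was at 2772, 2113 and 2396 in KO_tumor, 1435, 1836 and 1231 in WT_tumor, 1855, 1786 and 1961 in KO_no_tumor and 2143, 1527 and 1735 in WT_no_tumor livers. The KO_tumor livers lay above the WT_tumor and the KO_no_tumor livers. Its difference between tumour effects was 0.64 ± 0.28 (limma adjusted p = 0.859).

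The values of Aldh8a1, of the kynurenine pathway, averaged 6991 ± 1020 in KO_tumor, 4446 ± 1292 in WT_tumor, 5761 ± 481 in KO_no_tumor and 5190 ± 702 in WT_no_tumor livers (SD, n = 3), and KO_tumor minus WT_tumor was 0.68 ± 0.21 (limma adjusted p = 0.207). Aldh9a1, of carnitine synthesis, averaged 3663 ± 904 in KO_tumor, 2298 ± 290.2 in WT_tumor, 2856 ± 189 in KO_no_tumor and 2767 ± 446 in WT_no_tumor livers, with a difference of 0.65 ± 0.20 (limma adjusted p = 0.205). In both genes every KO_tumor liver lay above every WT_tumor liver, though in Aldh8a1 KO_tumor replicate 2 (5939) and WT_tumor replicate 2 (5937) nearly met. Aldh4a1, of proline breakdown, shares 30.03% of its transcript 50-mers with the gene model Gm21969 and is uncertain. Its means were 3556 ± 1478 in KO_tumor, 2128 ± 664 in WT_tumor, 3140 ± 681 in KO_no_tumor and 2866 ± 666 in WT_no_tumor livers. Aldh16a1 averaged 777 ± 165 in KO_tumor, 699 ± 191 in WT_tumor, 646 ± 61.0 in KO_no_tumor and 609 ± 39.7 in WT_no_tumor livers.

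**Figure D4:**
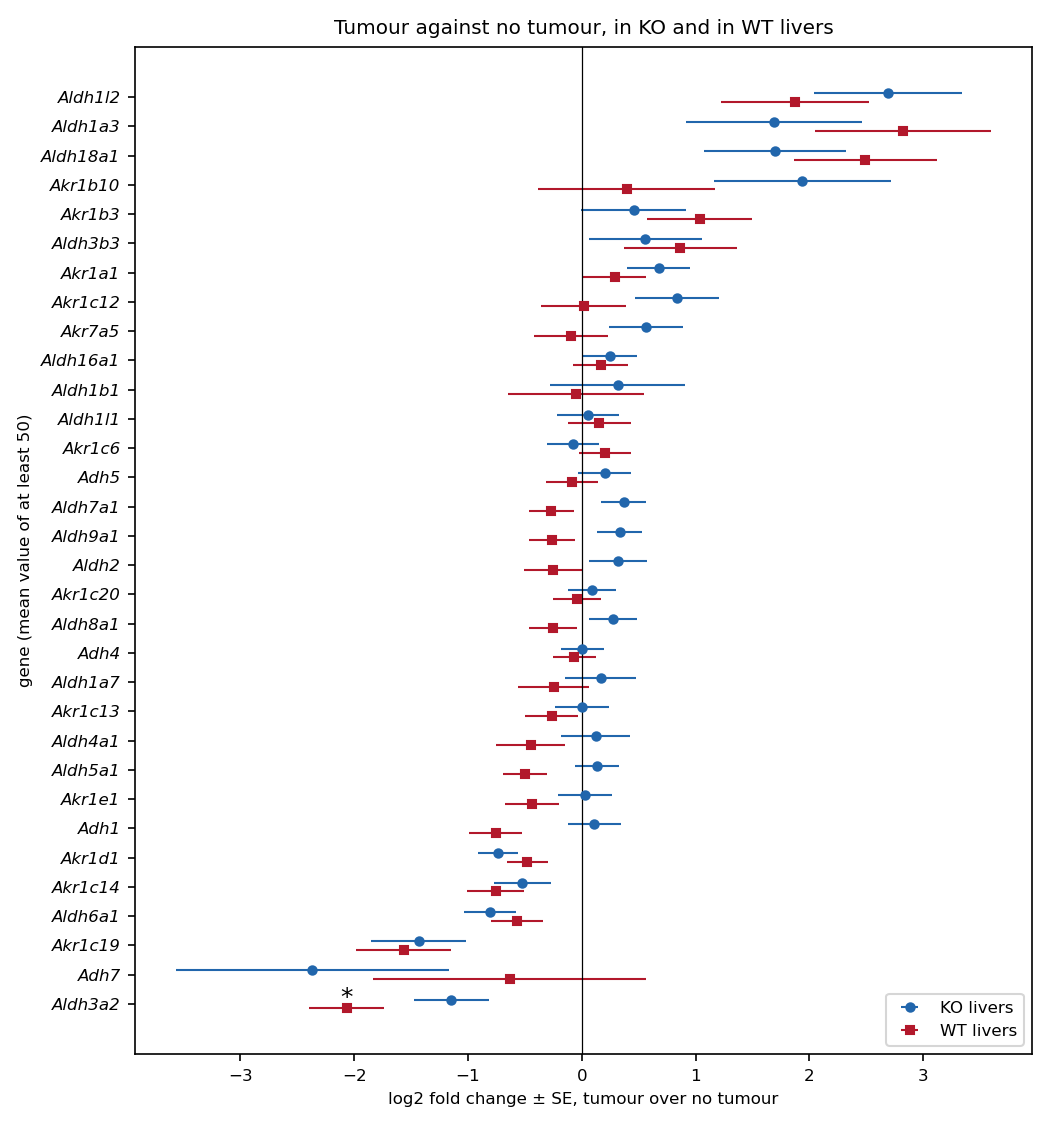
Log2 fold change (± SE) of tumour over no tumour for the 32 members with a mean value of at least 50, with circles for KO livers and squares for WT livers; an asterisk marks limma adjusted p under 0.05. Aldh3a2 in WT livers, at −2.06, carries the 1 asterisk.

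The Akr1a and Akr1b reductases, which act on aldehydes and sugars, gave no call in the fit reported. Akr1a1, the aldehyde reductase that makes a precursor of vitamin C in mice, was at 2589, 1620 and 2206 in KO_tumor, 1138, 1806 and 823 in WT_tumor, 1024, 1472 and 1502 in KO_no_tumor and 857, 1072 and 1012 in WT_no_tumor livers. KO_tumor livers lay above KO_no_tumor livers, and the tumour difference there was 0.68 ± 0.28 (limma adjusted p = 0.37). Akr1b3, the mouse aldose reductase, averaged 170.5 ± 69.6 in KO_tumor, 244 ± 108 in WT_tumor, 121 ± 41.4 in KO_no_tumor and 113 ± 23.9 in WT_no_tumor livers, and the WT_tumor livers lay above the WT_no_tumor livers. The low members Akr1b7, Akr1b8 and Akr1b10 varied widely between libraries of a group, with ranges of 0.77 to 94.8, 0.0 to 122 and 11.8 to 249. The highest Akr1b10 value came from KO_tumor replicate 1, which at the same time had 0 for Akr1b8 and 2.47, the value of 1 read, for Akr1b7. The 4 Akr1b genes lie together on chromosome 6, between 34279369 and 34400077 (mm39).

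Among the steroid-handling Akr1c and Akr1d enzymes, Akr1c19 and Akr1d1 were called lower with a tumour. Of the relatives that were not called, Akr1c14 had an averaged difference of −0.64, close to the −0.61 of Akr1d1. Akr1c19 (ENSMUSG00000071551, chromosome 13, 4278699 to 4302842, mm39) was at 1531, 4294 and 2326 in KO_tumor, 1193, 3804 and 2352 in WT_tumor, 7223, 4859 and 8589 in KO_no_tumor and 5540, 9470 and 5291 in WT_no_tumor livers. All 6 tumour livers lay below all 6 without a tumour. Means were 2717 ± 1422 in KO_tumor, 2450 ± 1308 in WT_tumor, 6890 ± 1887 in KO_no_tumor and 6767 ± 2344 in WT_no_tumor livers (SD, n = 3). The averaged tumour effect was −1.50 ± 0.30 (limma adjusted p = 0.0305), with −1.43 ± 0.42 (limma adjusted p = 0.324) in KO livers and −1.57 ± 0.42 (limma adjusted p = 0.149) in WT livers. The averaged call ended without KO_tumor replicate 3 (limma adjusted p = 0.0757), WT_tumor replicate 1 (0.0659), WT_tumor replicate 3 (0.062), KO_no_tumor replicate 1 (0.0901), KO_no_tumor replicate 3 (0.0837), WT_no_tumor replicate 1 (0.0658) or WT_no_tumor replicate 2 (0.0886), in each case with a negative difference.

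Akr1d1 (ENSMUSG00000038641, chromosome 6, 37507108 to 37545750, mm39), which reduces the steroid ring on the way to bile acids, was at 5084, 5035 and 5669 in KO_tumor, 5685, 4369 and 6106 in WT_tumor, 9526, 8022 and 8842 in KO_no_tumor and 7872, 7889 and 6593 in WT_no_tumor livers. All 6 tumour livers lay below all 6 without a tumour. Means were 5263 ± 353 in KO_tumor, 5387 ± 906 in WT_tumor, 8797 ± 753 in KO_no_tumor and 7451 ± 744 in WT_no_tumor livers (SD, n = 3). The averaged tumour effect was −0.61 ± 0.12 (limma adjusted p = 0.0367), with −0.74 ± 0.18 (limma adjusted p = 0.324) in KO livers and −0.48 ± 0.18 (limma adjusted p = 0.39) in WT livers. The averaged call ended without KO_tumor replicate 1 (limma adjusted p = 0.0547), KO_tumor replicate 3 (0.0758), WT_tumor replicate 1 (0.0764), WT_tumor replicate 2 (0.0577), KO_no_tumor replicate 1 (0.11), KO_no_tumor replicate 3 (0.0837), WT_no_tumor replicate 1 (0.0963) or WT_no_tumor replicate 2 (0.0886). It also ended with libraries at an equal total (0.0505), where the difference was −0.54, and after quantile normalization (0.0715), where it was −0.44.

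Akr1c12 did not pass a test in the fit reported and had its largest difference between genotypes. Its values were 918, 661 and 837 in KO_tumor, 239, 657 and 199 in WT_tumor, 355, 524 and 476 in KO_no_tumor and 317, 326 and 293 in WT_no_tumor livers. KO livers lay above WT livers in both tumour states, by little in KO_tumor replicate 2 against WT_tumor replicate 2. KO_tumor minus WT_tumor was 1.34 ± 0.37 (limma adjusted p = 0.18), and the KO difference averaged over tumour states was 0.93 ± 0.26 (limma adjusted p = 0.369). Both were called without WT_tumor replicate 2, and also with library weights. Akr1c12 and Akr1c13 share 28.63% and 24.23% of their transcript 50-mers with each other and are uncertain. Akr1c13 averaged 2868 ± 260.2 in KO_tumor, 2254 ± 971 in WT_tumor, 2862 ± 196 in KO_no_tumor and 2570 ± 229 in WT_no_tumor livers.

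Akr1c14 was at 16558, 23054 and 24928 in KO_tumor, 17190, 15828 and 22267 in WT_tumor, 33601, 28899 and 29060 in KO_no_tumor and 33189, 38223 and 23052 in WT_no_tumor livers. Tumour livers lay below those without a tumour within each genotype, and the averaged difference was −0.64 ± 0.18 (limma adjusted p = 0.101). Akr1c6 averaged 20066 ± 4980 in KO_tumor, 18906 ± 728 in WT_tumor, 21025 ± 4280 in KO_no_tumor and 16574 ± 3097 in WT_no_tumor livers, and Akr1c20 1996 ± 531 in KO_tumor, 1632 ± 229 in WT_tumor, 1847 ± 283 in KO_no_tumor and 1668 ± 68.7 in WT_no_tumor livers. Akr1c18, the enzyme that inactivates progesterone, did not pass 19.9 in any library. The 7 Akr1c genes lie on chromosome 13 between 4099011 and 4573344 (mm39). Within this stretch the averaged tumour difference spanned −1.50 for Akr1c19 to 0.43 for Akr1c12, the next member on the chromosome.

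Of the last group, Akr7a5, a mouse reductase of succinic semialdehyde, was at 915, 557 and 708 in KO_tumor, 239.9, 643 and 312 in WT_tumor, 527, 475 and 443 in KO_no_tumor and 344, 432 and 395 in WT_no_tumor livers. KO_tumor livers lay above KO_no_tumor livers, and KO_no_tumor livers above WT_no_tumor livers. KO_tumor minus WT_tumor was 0.97 ± 0.33 (limma adjusted p = 0.236). Akr1e1, which reduces anhydrofructose from glycogen, averaged 881 ± 156 in KO_tumor, 607 ± 137 in WT_tumor, 866 ± 156 in KO_no_tumor and 816 ± 134 in WT_no_tumor livers, and every KO_tumor liver lay above every WT_tumor liver.

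**Figure D5:**
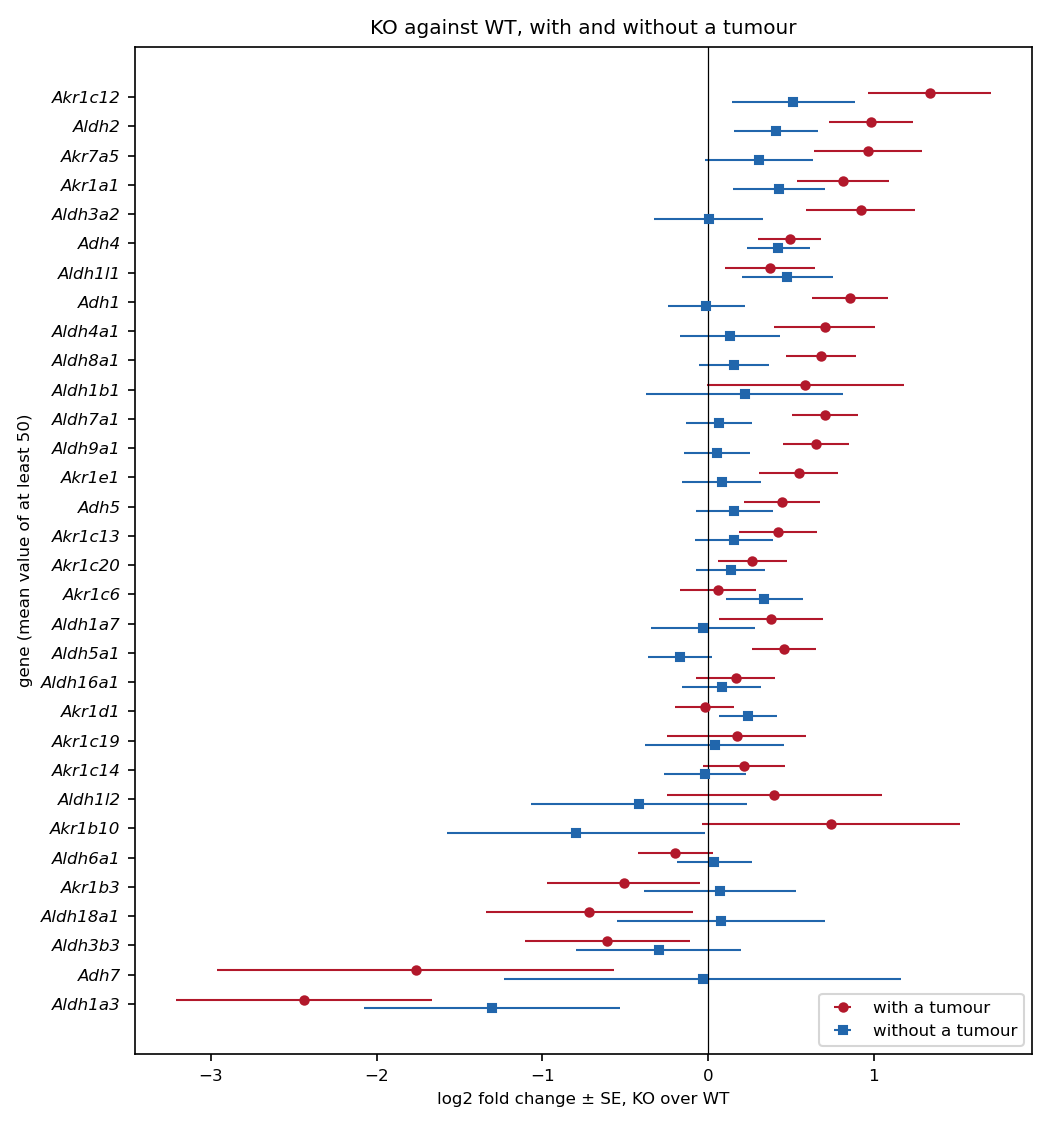
Log2 fold change (± SE) of KO over WT for the 32 members with a mean value of at least 50, with circles for livers with a tumour and squares for livers without one. With a tumour Aldh2 lies at 0.98 and Akr1c12 at 1.34, and no member passed limma's adjusted threshold in either comparison.

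The other enzymes of these pathways, among them catalase, carbonyl reductases, retinol dehydrogenases and hydroxysteroid dehydrogenases of other families, numbered 40, of which 39 were tested. Limma called 0 of 39 in each of the 7 comparisons. Before adjustment, p was under 0.05 for 8 in the averaged tumour comparison (15.1% of all genes), 7 for a tumour in WT livers (8.67% of all genes) and 4 for a tumour in KO livers (12.7% of all genes). It was under 0.05 for 11 for KO with a tumour (14.4% of all genes), 1 for KO without one (1.93%), 10 for KO averaged over tumour states (10.3%) and 3 for the difference between genotypes (4.7%). KO with a tumour was positive in 28 of 39, with a median of 0.31, beside 42.8% of all genes and a median of −0.12. The averaged tumour difference was positive in 17 of 39, with a median of −0.08, beside 46.8% of all genes and a median of −0.04.

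Limma adjusted p missed the threshold for each of 7 nuclear receptors and other regulators of these enzymes in each comparison. The averaged tumour difference was −0.62 ± 0.17 (limma adjusted p = 0.0999) for Nr1i2, the pregnane X receptor, and −0.62 ± 0.19 (limma adjusted p = 0.128) for Nr1i3, the constitutive androstane receptor. It was −0.52 ± 0.23 (limma adjusted p = 0.304) for Ppara, the fatty acid receptor. It lay between −0.01 and 0.09 for Nfe2l2, Ahr, Hnf4a and Nr1h4. KO_tumor minus WT_tumor was 0.85 ± 0.25 (limma adjusted p = 0.196) for Nr1h4, the bile acid receptor.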

How the data were processed

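Livers of 12 mice were snap frozen, and total RNA depleted of ribosomal RNA was sequenced, as the labels' protocols state. The deposited table holds a normalised signal per gene and library: the authors divided reads by a size factor for each library. STAR 2.7.8a, Partek and DESeq2, with genome build mm39, are named in the submitters' processing notes. How reads were counted, on which annotation and whether by strand is not given in the sources used here. Overlapping, antisense and near-identical genes may thus share reads.

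The value of 1 read was the step that low values repeat in each library, and the depth is the library total divided by it. Of values up to 20 reads, 77.9% to 85.0% were whole within 0.01, so whole reads were not recovered and no count model was used. Intervals of counting error are therefore not given.

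Genes that reached 10 in 3 or more libraries were fitted on log2(value + 1) with limma 3.58.1 (trend) in R 4.3.3, all 12 libraries in 1 fit with a mean per group and no covariate. Two-sided p-values were adjusted by Benjamini-Hochberg over 17380 genes within each of 7 comparisons: tumour in WT and in KO livers, KO with and without a tumour, the interaction, and both effects averaged. The labels state that replicates came from different mice.

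Per-library values and full statistics were given for members past the threshold in any comparison and for the 3 members with the smallest p in each comparison among those with a mean of at least 50; other members are given by means or ranges, a few of them with tests. The members and lists were chosen with earlier results of these data known. Levels per kb use the exon length of GENCODE M21 (GRCm38), and shared sequence is the percent of 50-mers of its transcripts found in another gene. Gene coordinates are those of the deposited table, with the end counted as the last base.

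Alternatives were a pseudocount of 10, no filter, 2 other scalings, library weights, a fit of the compared libraries alone, protein-coding genes alone, a replicate block, and leaving out each library or the 2 that stood apart. Same-numbered libraries were checked for shared deviations: correlations ran from −0.094 to 0.1 and 0 of 18 pairs were above 0.1, so the numbers were not taken to pair mice. With 3 mice per group and 1 of the numberings used, this check cannot exclude pairing or a shared batch. Numbers are those of the titles; in KO_no_tumor the descriptions number the same mice 1, 3 and 4.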

Additional observations from a re-analysis of the deposited data

How the results depend on the processing

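No difference of a member named by the rule reversed under an alternative, and for the tumour in KO livers, KO without a tumour and the interaction the count of called members was 0 throughout. With library weights limma called 5 members for the tumour in WT livers (1 in the fit reported), 10 for the averaged tumour effect (5), 10 for KO with a tumour (0) and 1 for KO averaged over tumour states (0). Fitting the compared libraries alone gave 3 for the tumour in WT livers. Without KO_tumor replicate 1 and KO_no_tumor replicate 3 together there were 3 for the tumour in WT livers and 3 for the averaged tumour effect (Aldh1a3, Aldh1l2 and Aldh3a2, with Akr1c19, Akr1d1 and Aldh18a1 lost and Aldh1a3 gained). With each library left out in turn, counts ran from 0 to 3 for the tumour in WT livers, 1 to 6 for the averaged tumour effect, 0 to 3 for KO with a tumour and 0 to 1 for KO averaged over tumour states. With the replicate block the averaged tumour effect had 3 called members (Akr1c19, Aldh1l2 and Aldh3a2), and Akr1d1 (limma adjusted p = 0.0564) and Aldh18a1 (0.0678) were lost. Whether the replicate numbers pair the mice is not known. Counts over all genes moved further. The tumour in WT livers had 118 called genes in the fit reported, 510 with weights, 212 without both libraries and 12 to 205 with a library left out. The averaged tumour effect had 185, 856 with weights and 47 to 361 with a library left out. KO with a tumour had 4, 1664 with weights, 17 with a pseudocount of 10, 16 with no filter, 13 with the replicate block, 11 with quantile normalization, 9 without both libraries, 2 with protein-coding genes, 0 with the compared libraries alone and 2 to 210 with a library left out. KO averaged over tumour states had 2, 139 with weights, 1 with protein-coding genes and 2 to 15 with a library left out. The tumour in KO livers had 0, 14 with weights, 1 with the compared libraries alone and 0 to 1 with a library left out. KO without a tumour had 1, 2 with weights and 0 to 1 with a library left out, and the interaction 0, 1 with weights and 0 to 1 with a library left out. The cause of these shifts was not tested. Members under about 50 rest on few reads in the shallowest library, where 1 read is worth 2.47.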

Other observations

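Single libraries often held the extreme value of a member. KO_tumor replicate 1 was the highest of the 12 libraries in 17 of 36 tested members, Aldh2, Aldh9a1 and Aldh1b1 among them, and the lowest in 3, while 24.0% of all tested genes were highest and 39.3% lowest in it. Ties were credited to this library, the first in order, so genes at 0 both there and elsewhere counted as lowest in it alone. Akr1b8, at 0 also in KO_no_tumor replicate 3, is among the 3. WT_tumor replicate 3 was the lowest in 11 members, against 8.3% of all genes, and WT_tumor replicate 1 in 7, against 5.4% of all genes. KO_tumor replicate 2 was neither the highest nor the lowest in any of the 36, beside 3.4% of all genes highest and 2.4% lowest in it.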
